A study of Mus musculus with 12 samples.

Results

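In fibroblasts lacking Zfp266, 479 genomic regions were listed as more open than in control fibroblasts, and 213 of these had a lower mean accessibility after 72 h of reprogramming than control fibroblasts. These 213 regions are described here. They were chosen on measured values: a region was taken when its mean normalised read count in the MEF KO libraries (K) was above that in the MEF control libraries (C), and when its mean over the 6 reprogramming libraries (R) was below C. The other 266 openings had R at or above C. All 4 peak lists together merged into 273256 regions, so the listed MEF openings were 0.175% of them, a share given only as background because the rule used that contrast.

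Open chromatin was profiled by Omni-ATAC-seq, in which a transposase inserts adapters into accessible DNA, in 12 libraries of 50000 sorted mouse cells. The cells were Cas9-expressing mouse embryonic fibroblasts (MEFs) taken from E12.5 chimeric embryos, and they carried a doxycycline-inducible cassette for Myc, Klf4, Oct4 and Sox2 linked to mOrange. All 4 groups of 3 libraries carried Cas9 and the cassette. MEF control and MEF KO cells received a non-targeting guide RNA or a guide RNA against Zfp266 by lentivirus and were harvested 96 h later without induction. Reprogramming control and reprogramming KO cells received the same guides and then 300 ng/ml doxycycline with 10 µg/ml vitamin C for the final 72 h. Their mOrange-positive cells were sorted. Per the methods, they were plated among an excess of wild-type MEFs and changed to a LIF medium without FGF2 and heparin. MEF samples stayed in fibroblast medium. Between C and R, factor induction, medium and co-culture therefore cannot be told apart. The KO cells are populations treated with a guide, not clones, so cells with an intact gene may be among them. The accessibility values cannot show how many alleles were cut. For guide-treated MEFs of its RNA-seq, the paper reports a high rate of out-of-frame insertions and deletions in Zfp266. The start site of Zfp266 held a peak in all 4 groups, with fold enrichments of 5.46 and 5.08 in control and KO MEFs and of 5.03 and 4.52 in control and KO reprogramming.

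As background, ZFP266 belongs to the KRAB zinc finger proteins, a family that binds DNA through zinc finger arrays, often within transposable elements, and recruits the co-repressor TRIM28, which leads to heterochromatin at the bound sites. B1 elements are short interspersed repeats of rodents derived from the 7SL RNA gene. AP-1, a dimer of FOS and JUN family proteins, occupies many fibroblast enhancers, and somatic enhancers of this kind are known to lose accessibility early during reprogramming to pluripotency.

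The fibroblast markers Col1a1, Col1a2, Prrx1, Twist2, Pdgfra, Pdgfrb and Thy1 all had a peak over a start site in each of the 4 groups, 7 of 7. Of the other markers, 2 of 4 epithelial genes (Cdh1 and Epcam) had one in both MEF groups and 4 of 4 in both reprogramming groups, whereas 1 of 4 endothelial genes (Kdr) and 1 of 4 blood genes (Cd68) had one in every group. Neural genes had one in 4 of 4 in both MEF groups, 2 of 4 in reprogramming control and 3 of 4 in reprogramming KO, and 1 of 4 pluripotent genes did in each group, namely Pou5f1 in MEFs and Zfp42 in reprogramming. The part of other cells in the results was not tested. The 6 MEF libraries held 18763 to 46362 reads within the 213 regions, and size factors ran from 0.630 to 1.46 over all 12 libraries. Replicates were separate libraries per the labels, and pairs of MEF replicates differed by more than counting noise over the 213 regions (chi-square per degree of freedom between 1.21 and 1.92).

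Sequences are shown first for 5 of the named regions that held a B1 element and the 7-base AP-1 string TGACTCA, or its reverse complement TGAGTCA, no more than 200 bases apart. Each stretch runs over both features and is printed for the + strand of GRCm38, with every AP-1 string in capitals. The Asic2, Lima1 and Arl14ep regions were among those that fell furthest in reprogramming, and the Btbd9 and Tns3 regions were also listed as more open in reprogramming KO. The B1 consensus against which elements were found, built from copies on chromosome 19, comes last for comparison.
Asic2 region, chr11:81343931-81344207: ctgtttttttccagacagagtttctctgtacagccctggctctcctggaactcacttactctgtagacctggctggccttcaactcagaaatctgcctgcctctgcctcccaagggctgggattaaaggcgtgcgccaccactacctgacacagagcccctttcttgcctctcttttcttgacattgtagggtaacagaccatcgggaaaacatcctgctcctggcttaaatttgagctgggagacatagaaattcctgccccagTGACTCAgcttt
Lima1 region, chr15:99853790-99853986: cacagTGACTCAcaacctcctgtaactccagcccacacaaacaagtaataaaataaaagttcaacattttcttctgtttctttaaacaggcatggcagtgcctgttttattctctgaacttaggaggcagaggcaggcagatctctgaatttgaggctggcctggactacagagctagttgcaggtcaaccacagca
Arl14ep region, chr2:107013368-107013611: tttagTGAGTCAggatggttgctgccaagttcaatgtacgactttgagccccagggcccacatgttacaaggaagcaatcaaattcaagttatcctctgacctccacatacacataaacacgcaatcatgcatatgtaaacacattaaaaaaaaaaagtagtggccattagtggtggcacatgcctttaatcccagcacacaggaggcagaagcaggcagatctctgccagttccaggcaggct
Btbd9 region, chr17:30439995-30440251: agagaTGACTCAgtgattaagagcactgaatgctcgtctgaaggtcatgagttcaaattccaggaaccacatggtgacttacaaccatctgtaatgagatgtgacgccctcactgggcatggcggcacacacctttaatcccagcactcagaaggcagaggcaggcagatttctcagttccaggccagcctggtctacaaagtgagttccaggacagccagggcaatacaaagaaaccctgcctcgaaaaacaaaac
Tns3 region, chr11:8365787-8366021: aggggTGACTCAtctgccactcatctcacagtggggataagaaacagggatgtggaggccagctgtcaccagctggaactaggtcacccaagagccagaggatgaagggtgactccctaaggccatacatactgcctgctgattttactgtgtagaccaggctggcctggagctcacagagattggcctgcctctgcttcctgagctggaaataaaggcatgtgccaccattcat
B1 consensus: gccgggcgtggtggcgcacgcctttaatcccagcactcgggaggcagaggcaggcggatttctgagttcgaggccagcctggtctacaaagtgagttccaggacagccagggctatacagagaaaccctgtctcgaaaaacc

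The B1 element of the Asic2 region covered 137 bases on the - strand at 89.8% identity to the consensus, and the AP-1 string lay 123 bases from it. In the Btbd9 region a B1 element of 138 bases on the + strand, 91.3% identical, lay 102 bases from the AP-1 string. The elements of the Lima1, Arl14ep and Tns3 regions were partial, with 87, 69 and 84 bases, and lay 93, 158 and 134 bases from the string.

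The values by which the regions were chosen are given as a description, with no test. The median normalised read count over the 213 regions was 60.4, 61.4 and 65.97 in the 3 MEF control libraries and 129, 128.2 and 125 in the 3 MEF KO libraries. Averaged over libraries the median was 62.6 ± 2.97 in MEF control and 127 ± 1.89 in MEF KO (SD, n = 3 in both). The 3 KO libraries lay above all 3 control libraries at each of the 213 regions. The median log2 ratio of K over C, with a pseudocount of 1, was 1.01 and ranged from 0.34 to 2.76. A log2 ratio of at least 1 was found at 109 regions (51.2%) and of at least 2 at 10 regions (4.69%).

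**Figure D1:**
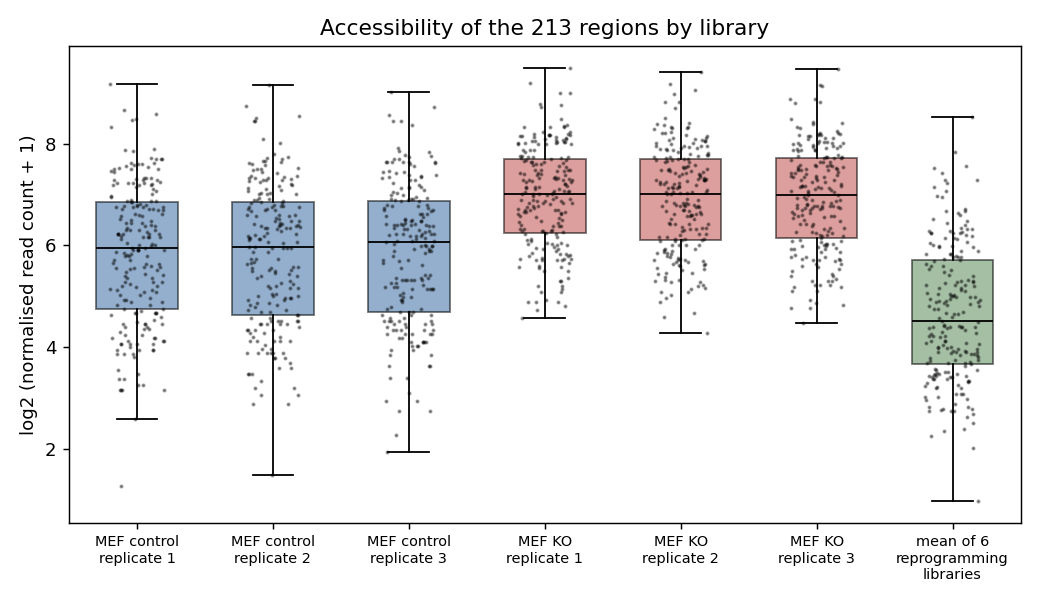
Log2 of the normalised read count plus 1 at each of the 213 regions (points), with median, quartiles and whiskers to 1.5 times the interquartile range, for the 3 MEF control libraries, the 3 MEF KO libraries and the mean of the 6 reprogramming libraries. The medians before taking logs are 60.4 to 65.97 in MEF control, 125 to 129 in MEF KO and 21.8 in reprogramming.

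In reprogramming the median of R was 21.8, with values from 0.976 to 365. The median of R over C was 0.496 and the lowest was 0.0501, and the median of R over K was 0.217. R was under 0.8 of C at 178 regions (83.6%), under 0.5 at 110 (51.6%) and under 0.25 at 42 (19.7%). At 184 regions R was below each of the 3 MEF control libraries, whereas at the other 29 (13.6%) it was at or above the lowest of them, so "closed" does not describe those 29. R pools reprogramming control and KO. Where R was under 0.5 of C, which held for 110 regions, neither group mean can exceed C, and for the other 103 regions the group means were not available one by one unless the region was also listed in the reprogramming comparison. Because libraries were put on a common scale by size factors, a shift shared by most regions between MEFs and reprogramming would not appear in R over C.

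**Figure D2:**
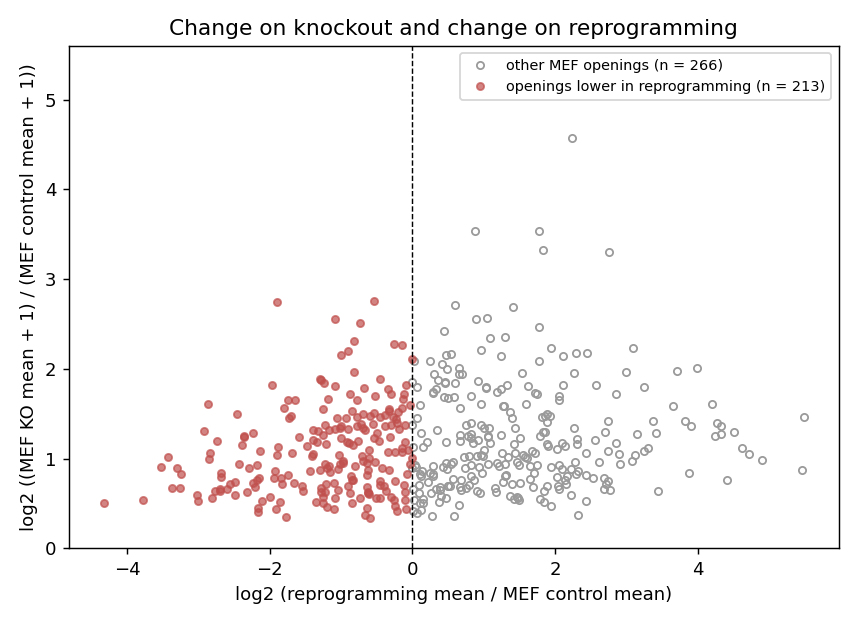
Log2 ratio of MEF KO over MEF control (y axis, pseudocount 1) against log2 ratio of the reprogramming mean over MEF control (x axis) for the 213 regions (filled) and the other 266 MEF openings (open circles), with the dashed line at equal levels. The 213 regions lie left of the line by the rule, and their log2 ratio on knockout runs from 0.34 to 2.76.

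The regions nearest to the limit of the rule show how narrow it is. Just inside, R over C was 0.999 at a region within Pigu, 0.996 at one within Uqcc1 and 0.979 at one near Fastkd5. At the Pigu region MEF control libraries gave 59.0, 57.7 and 71.7, MEF KO libraries gave 124, 110.4 and 146, and R was 62.7. Just outside, R over C rounded to 1.00 at regions within Inpp4a, Sap130 and Acad10, with R of 12.2, 8.33 and 35.2 against C of 12.2, 8.32 and 35.1. These values differ by less than the spread between the MEF control libraries.

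Divided into 3 equal sets of 71 by R over C, the regions that fell furthest (R over C from 0.0501 to 0.381) had the highest starting level in MEF control, with a median C of 85.2, against 42.0 in the middle set and 45.4 in the set that fell least. Their median log2 ratio of K over C was 0.83, against 1.18 and 1.10. The measures share C, so these differences are a description.

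Among regions with K of at least 40, the 6 with the highest ratio of K over C had C of 10.8 to 20.5 and none had a peak in MEF control or in either reprogramming group. The highest ratio was at chr14:73329717-73330309, in intergenic sequence 4191 bases upstream of the nearest start site of Rb1, which encodes the retinoblastoma protein that restrains cell cycle entry. Its normalised read counts were 14.4, 8.25 and 16.3 in MEF control and 86.9, 108 and 84.8 in MEF KO, means of 12.96 ± 4.19 and 93.3 ± 13.03 (SD, n = 3 in both). R was 8.97. This region held a B1 element and no AP-1 string.

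The next was chr3:34755107-34755618, in intergenic sequence 104958 bases downstream of Sox2, one of the reprogramming factors and a core pluripotency gene. MEF control libraries gave 15.8, 10.99 and 18.2 and MEF KO libraries gave 102, 80.2 and 95.9. The means were 15.0 ± 3.66 and 92.9 ± 11.4 (SD, n = 3 in both), and R was 7.10. A peak was called in MEF KO alone, with a fold enrichment of 5.76, and the region held a B1 element and an AP-1 string. Enhancers of Sox2 used in embryonic stem cells are known to lie downstream of the gene, and whether this region overlaps one was not tested.

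A region upstream of Plin2, which encodes a coat protein of lipid droplets, at chr4:86679450-86680150, had counts of 22.3, 22.9 and 16.3 in MEF control and 146, 100.8 and 117 in MEF KO, with R of 12.3. One near Herpud2, a gene related to the endoplasmic reticulum stress gene Herpud1, at chr9:25160970-25161785, had 17.97, 21.1 and 21.03 in MEF control and 119.7, 76.8 and 114 in MEF KO, with R of 11.3. The remaining regions of this set lay near Amotl2, which encodes an angiomotin-like protein that binds YAP, and within Agap1, which encodes a GTPase-activating protein of membrane traffic. Their K was 58.4 ± 12.6 and 55.7 ± 10.7, and their C was 11.3 ± 4.06 and 10.8 ± 2.75 (SD, n = 3). These 4 regions held an AP-1 string and no B1 element.

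The 6 regions with the lowest R over C, among those with C of at least 40, each had a peak in both MEF groups and none in reprogramming, and K over C was 1.42 to 1.89. Both sets were picked on C, K and R, so these values follow in large part from the choice. At chr11:81343689-81344765, in an intron of the ion channel gene Asic2 and 190906 bases from its nearest start site, MEF control libraries gave 184, 191 and 170.2 and MEF KO libraries gave 285, 245 and 245. R was 9.11, which is 0.0501 of C. The peak enrichment was 6.61-fold in MEF control and 6.94-fold in MEF KO.

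In an intron of Tango6, at chr8:106701147-106701837, MEF control libraries gave 158, 171 and 161, MEF KO libraries gave 233, 245 and 234, and R was 11.9. In an intron of Lima1, which encodes the actin-binding protein EPLIN, at chr15:99852611-99854079, the counts were 207, 199.7 and 211 in MEF control and 319, 338 and 331 in MEF KO, and R was 20.04. The MEF control and KO means were 163 ± 7.01 and 237 ± 6.96 at Tango6 and 206 ± 5.84 and 329 ± 9.75 at Lima1 (SD, n = 3). Both regions held at least 1 B1 element, and the Lima1 region also held the AP-1 string.

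At chr2:107012928-107013770, 38925 bases upstream of Arl14ep, MEF control libraries gave 63.3, 82.5 and 73.6, MEF KO libraries gave 111, 156 and 143, and R was 7.43. At chr10:55033620-55034376 the nearest protein-coding start site, that of the mannosidase gene Man1a, was 957389 bases away, and C, K and R were 65.95 ± 6.64, 124 ± 10.6 and 5.75. In an intron of Fnbp1, which encodes a membrane-bending protein of endocytosis, at chr2:31124323-31125055, they were 156 ± 4.63, 249 ± 11.3 and 16.5 (SD over 3 libraries for C and K). Fnbp1 was the nearest gene of a second region, with C of 62.8, K of 109 and R of 16.4. In all, 209 nearest genes had 1 region each.

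Only listed intervals have values for single reprogramming libraries. Of the 213 regions, 10 (4.69%) were also listed as more open in reprogramming KO than in reprogramming control, against 0.557% of all 273256 regions, and 0 were listed as more closed, against 0.0315%. A count of 0 of 213 allows a share of up to 1.41%, taken as 3 counts of the total. Of the other 266 MEF openings, 60 (22.6%) were listed as more open in reprogramming KO and 0 as more closed. Whether a region is listed depends on its read count, and the part of read count in these shares was not tested. The MEF and reprogramming comparisons rest on different libraries, which were scaled together over all 12, and the 10 regions passed the authors' threshold on these reprogramming libraries, so their reprogramming values are given without a test.

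At each of the 10, all 3 reprogramming KO libraries lay above all 3 reprogramming control libraries. At the same time every reprogramming control library lay below every MEF control library, and every reprogramming KO library below every MEF KO library. The rule sets R below C and the listing sets reprogramming KO above control, so the reprogramming control mean had to lie below C. The rule also favours reprogramming KO below MEF KO, so these orders are a description. The reprogramming KO mean was above the MEF control mean at 2 of the 10, near Odc1 and Rasl10a. The log2 ratio of KO over control was larger in reprogramming than in MEFs at 8 of the 10, and this difference was not tested.

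The highest level in reprogramming KO was at chr17:30438542-30440404, in an intron of Btbd9, a gene of the BTB domain family. Its 12 normalised read counts were 321, 348 and 327 in MEF control and 430.3, 447 and 468 in MEF KO, falling to 80.4, 64.4 and 52.2 in reprogramming control but to 228, 233 and 278 in reprogramming KO. The means were 332 ± 14.1, 449 ± 19.2, 65.7 ± 14.2 and 246 ± 27.6 (SD, n = 3 in each), so reprogramming control retained 0.198 of the MEF control level and reprogramming KO 0.548 of the MEF KO level. The log2 ratio of KO over control was 0.43 in MEFs and 1.89 in reprogramming.

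At a region within the stearoyl-CoA desaturase gene Scd3, reprogramming control libraries gave 32.4, 30.8 and 19.6 and reprogramming KO libraries gave 94.2, 113 and 106. The MEF means were 119.8 ± 23.4 in control and 209 ± 4.06 in KO (SD, n = 3). A peak was called in reprogramming KO, at 4.16-fold enrichment, and not in reprogramming control. At chr11:5052256-5052880, 5560 bases upstream of Rasl10a, a gene of the RAS-like family, reprogramming control libraries gave 34.6, 18.1 and 22.2 and reprogramming KO libraries 87.8, 100.9 and 105, against 80.8 ± 6.97 and 131 ± 9.51 in MEF control and KO (SD, n = 3). These 2 regions and the Btbd9 region had the largest log2 ratios in reprogramming, 1.88 to 1.93.

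The region at chr12:17509925-17511497, 34083 bases upstream of Odc1, which encodes the rate-limiting enzyme of polyamine synthesis, kept more of its accessibility. Its libraries gave 139, 98.9 and 123 in reprogramming control and 249.8, 197 and 209.6 in reprogramming KO, against MEF means of 200.2 ± 6.88 and 279 ± 18.7 (SD, n = 3). The region in Bicral, which encodes a subunit of a BAF-type chromatin remodelling complex, at chr17:46841607-46844085, had 166, 153 and 155 in reprogramming control and 221, 215 and 214 in reprogramming KO. It held 4 B1 elements and had the smallest log2 ratios, 0.41 in MEFs and 0.45 in reprogramming. Its peak enrichment went the other way, 4.93 in control and 4.23 in KO MEFs, and 3.42 and 2.35 in control and KO reprogramming. In an intron of the adhesion receptor gene Adgrv1, at chr13:81358339-81359757, the reprogramming means were 75.0 ± 6.09 and 126 ± 29.0, and near Tns3, which encodes the focal adhesion protein tensin 3, at chr11:8364860-8366572, they were 57.9 ± 8.99 and 99.4 ± 8.89 (control and KO, SD, n = 3).

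The other 3 regions lay near Tnrc6b, an RNA silencing factor, Stab2, a hyaluronan receptor, and Ankdd1a. Their reprogramming KO means were 75.3 ± 4.93, 73.1 ± 1.46 and 49.0 ± 4.41 (SD, n = 3), which is 0.300, 0.277 and 0.194 of their MEF KO means. Of the 10 regions, 7 held a B1 element and 7 an AP-1 string.

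**Figure D3:**
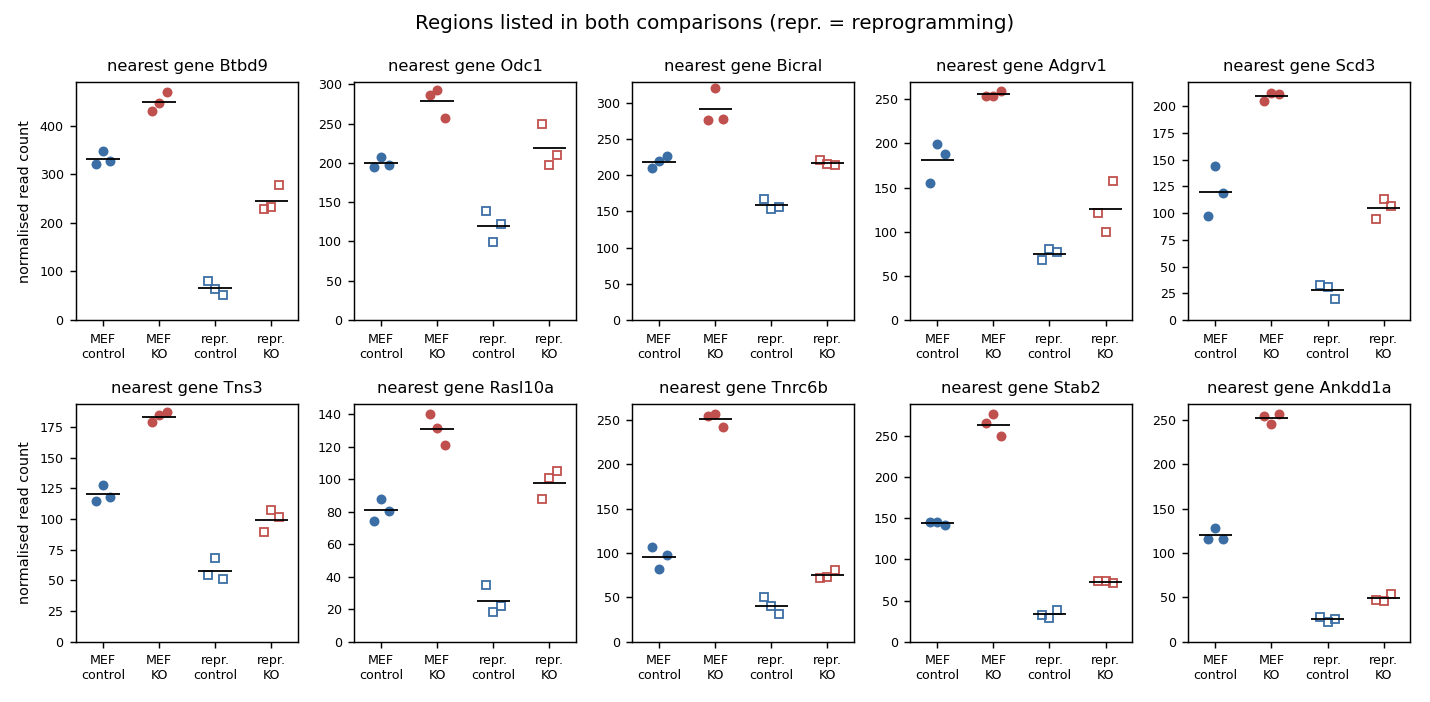
Normalised read counts (y axes, from 0) of the 10 regions listed in both comparisons, each named by its nearest gene, with 3 libraries per group as points (filled for MEFs, open for reprogramming; blue for control, red for KO) and the group mean as a line. In each panel the KO libraries lie above the control libraries in both cell states. The reprogramming libraries of each genotype lie below the MEF libraries of that genotype, which for the control means was fixed by the choice of regions.

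Peaks called on the merged libraries of each group give a view of all 213 regions, with 1 list per group and so no replicate error. They come from the same libraries as C, K and R, so the decline from MEFs to reprogramming in them is fixed in part by the rule. A MEF KO peak was present at 213 of 213 regions and a MEF control peak at 159 (74.6%, 95% Wilson interval 68.4 to 80.0). A reprogramming control peak was present at 51 (23.9%, 18.7 to 30.1) and a reprogramming KO peak at 66 (31.0%, 25.2 to 37.5). These last shares were 8.45% and 16.4% where the peak had to cover 50% of the region, and 10.8% and 17.8% at a −log10 q of at least 5. Over all merged regions the shares were 59.7%, 58.6%, 61.2% and 58.9% for MEF control, MEF KO, reprogramming control and reprogramming KO. Wilson intervals here cover counting error only.

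Regions fell into a few peak patterns. The most frequent, a peak in both MEF groups and in neither reprogramming group, held 93 regions (43.7%) with a median C of 63.5, K of 130 and R of 18.4. A peak in MEF KO alone was found at 52 (24.4%), whose median levels were lower, 17.5 for C, 51.4 for K and 9.84 for R, and whose median log2 ratio of K over C was 1.45. A peak in all 4 groups was found at 49 (23.0%), the most accessible and widest, with a median C of 140.3, K of 235, R of 76.8 and width of 1573 bases, against 511.5 bases for peaks in MEF KO alone. Of the remaining regions, 15 lacked a peak in reprogramming control only, 2 lacked one in reprogramming KO only and 2 had one in the KO groups only.

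The rule did not use the split of reprogramming into control and KO. A reprogramming peak was called in KO and not in control at 17 regions (7.98%, 5.04 to 12.4) and in control and not in KO at 2 (0.939%, 0.258 to 3.36). Over all merged regions the order was the other way, 4.96% in KO alone and 7.27% in control alone. Where both reprogramming lists had a peak, the enrichment was higher in KO at 32 of 49 regions (65.3%), against 44.2% of all merged regions with both peaks. The other 266 MEF openings gave 9.77% in KO alone, 0.752% in control alone and 62.9% higher in KO. With 1 list per group these shares have no replicate check.

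Among the 17 with a reprogramming peak in KO and not in control, chosen here after their values were seen, the highest K was 278 ± 17.1 (SD, n = 3) at a region 10227 bases from the heme exporter gene Flvcr1, with C of 74.9 ± 1.82 and R of 30.8. Others lay near Uqcrc1, a subunit of mitochondrial complex III, Gsk3b, a kinase that antagonises WNT signalling, and Klf9, a Krüppel-like factor, with K of 275, 166 and 73.5 and R of 53.7, 43.6 and 29.2.

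**Figure D4:**
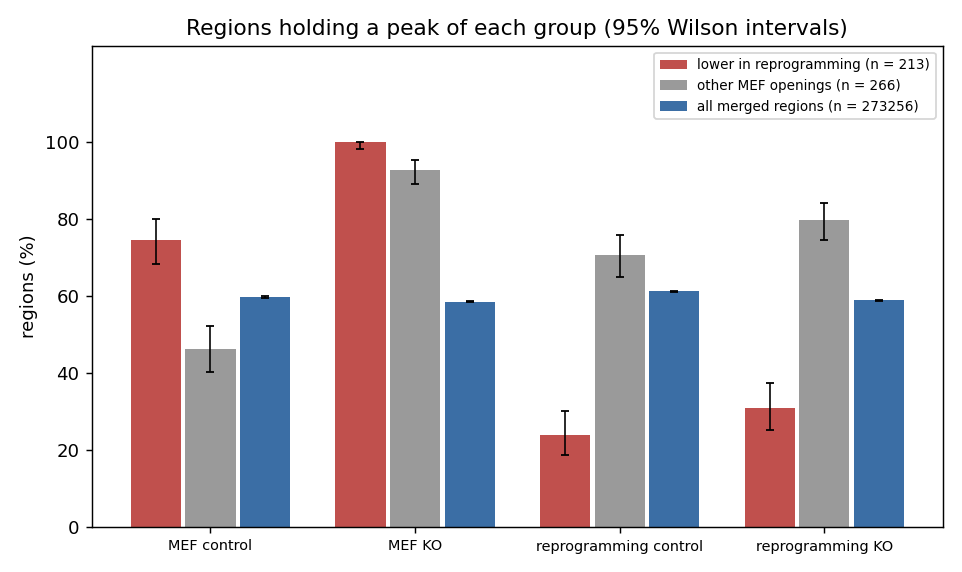
Share of regions (%) that hold a peak of each of the 4 groups, for the 213 regions, the other 266 MEF openings and all 273256 merged regions, with 95% Wilson intervals that cover counting error only. The 213 regions go from 74.6% and 100% in MEF control and KO to 23.9% and 31.0% in reprogramming control and KO.

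By position, 121 regions (56.8%) had their midpoint in an intron, 71 (33.3%) in intergenic sequence, 16 (7.51%) within 1000 bases of a transcription start site and 5 (2.35%) in an exon. Over all merged regions these shares were 44.9%, 40.2%, 11.2% and 3.74%. In the other 266 MEF openings they were 59.4%, 28.6%, 7.14% and 4.89%. The median distance to the nearest protein-coding start site was 11626 bases, against 23704.5 over all merged regions and 10006 in the other 266 MEF openings. Inside a protein-coding gene lay 130 regions, for which no share over all merged regions was computed. The median width was 854 bases, against 732 over all merged regions and 1034.5 in the other openings. Regions were found on 20 chromosomes, and 5 pairs of neighbours had midpoints within 100 kb. Chromosome 11 held the most, 22 (10.3%), against 5.90% of all merged regions, and this difference was not tested.

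With promoters widened to 2500 bases the share was 16.9%, against 18.8% of all merged regions. Of the regions within 1000 bases of a start site, the one with the highest K, chosen after its values were seen, lay 385 bases from a start site of Gipc2, with C of 552 ± 30.7, K of 698 ± 22.8 (SD, n = 3) and R of 365. Other promoter regions lay at Mpi, which encodes mannose phosphate isomerase (K of 333 ± 6.16, C of 243 ± 11.8), at Tmbim6, which encodes an inhibitor of cell death at the endoplasmic reticulum (K of 259 ± 15.6, C of 174 ± 29.0), and at Ebf1, a transcription factor gene (K of 89.2 ± 8.52, C of 25.3 ± 1.78). R was 156 and 73.1 at Mpi and Tmbim6, and at Ebf1 it was 0.790 of C.

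Sequence was not part of the rule. At least 1 B1 element, with 60 or more aligned bases, was found in 108 of the 213 regions (50.7%, 44.0 to 57.3), in 53.8% of the other 266 openings (47.8 to 59.7) and in 7.39% of all merged regions. In the central 400 bases, a window of equal length for every region, the shares were 23.9%, 28.2% and 2.74%. These shares of the 213 and of the 266 lay within each other's intervals. With at least 100 aligned bases they did not, at 36.6% (30.4 to 43.3) and 43.6% (37.8 to 49.6), nor did the shares with 2 or more elements, 7.51% (4.68 to 11.9) and 15.0% (11.2 to 19.8). No test of these differences was made. The 213 regions held 137 elements with a median of 116 aligned bases and a median identity of 83.2%, against 84.8% over all merged regions. The midpoint of 108 elements (78.8%) lay within 500 bases of the midpoint of the region, and 76 of 137 (55.5%, 47.1 to 63.5) had their 5′ end towards it.

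The AP-1 string was found in the central 400 bases of 91 regions (42.7%, 36.3 to 49.4), against 31.2% (25.9 to 37.0) of the other 266 openings and 18.5% of all merged regions. With B1 sequence masked the share was 40.4%. Anywhere in the region it was found in 146 (68.5%), against 58.6% and 31.1%. As a further set, chosen after values were seen, the 75229 merged regions with a peak in both MEF groups and in neither reprogramming group held the AP-1 string centrally in 27.7% and a B1 element in 3.02%, against 18.5% and 7.39% of all merged regions. The differences between these sets were not tested.

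Both features were present in 69 regions (32.4%), a B1 element alone in 39 (18.3%), the AP-1 string alone in 77 (36.2%) and neither in 28 (13.1%). The median log2 ratio of K over C was 0.87, 0.97, 1.18 and 1.20 in these 4 classes, and the median R over C was 0.494, 0.472, 0.510 and 0.463. Where both were present they overlapped in 10 regions, and in the other 59 the gap had a median of 134 bases. The share with a B1 element was 52.1%, 52.1% and 47.9% in the sets that fell furthest, intermediately and least in reprogramming, and the share with a central AP-1 string was 43.7%, 42.3% and 42.3%.

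**Figure D5:**
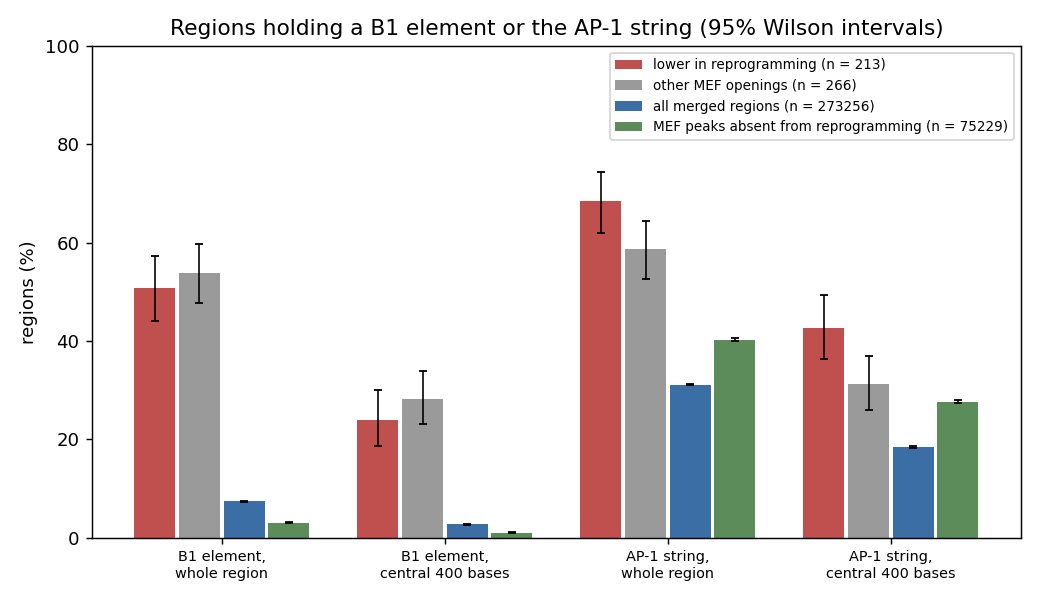
Share of regions (%) that hold a B1 element or the AP-1 string, in the whole region or the central 400 bases, for the 213 regions, the other 266 MEF openings, all 273256 merged regions and the 75229 with MEF peaks and no reprogramming peak, with 95% Wilson intervals that cover counting error only. B1 elements were in 50.7%, 53.8%, 7.39% and 3.02%, and the central AP-1 string in 42.7%, 31.2%, 18.5% and 27.7%.

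Other strings were searched on both strands of the central 400 bases. The TEAD string GGAATGT was in 9.39% (6.16 to 14.1) of the 213 regions, 4.14% of the other openings and 7.77% of all merged regions, and the RUNX string TGTGGTT in 15.0% (10.8 to 20.4), 12.4% and 11.9%. The KLF string GGGTGTGG was in 4.23% (2.24 to 7.83), 7.52% and 5.36%, the SOX string CATTGTT in 6.10% (3.60 to 10.2), 6.39% and 8.32%, and the OCT string ATTTGCAT in 1.41% (0.480 to 4.06), 0.752% and 2.65%. The CRE string TGACGTCA was in 1 region and the CEBP string TTGCGNAA in 2. For each string the share over all merged regions lay within the interval of the 213. A match describes letters in a window and is no evidence of binding. The central 400 bases had a median GC content of 45.2%, against 45.0% over all merged regions. Their median of repeat-masked sequence was 26.0%, against 12.8% over all merged regions and 29.25% in the other openings.

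By nearest protein-coding start site, 0 of the 213 regions were assigned to the 36 extracellular matrix genes, the 12 genes of the AP-1 family, the 35 mesenchymal transcription factors, the 23 genes of the TGF-beta pathway, the 30 genes of actin, adhesion and fibroblast surface or the 14 epithelial genes. These lists took 0.440%, 0.0564%, 0.618%, 0.335%, 0.319% and 0.0629% of all merged regions, and a count of 0 of 213 allows up to 1.41%, so a difference from these shares was not detectable. The lists are partial, so the counts of 0 describe the listed genes only. Genes of these kinds outside the lists, such as Lamc1, Ogn, Bmpr1b and Bmp8b, were each nearest to a region. Of the 20 pluripotency genes only Sox2 had a region, the one described above. That is 0.469% of the 213 against 0.179% of all merged regions.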

How the data were processed

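Accessibility was measured in 4 groups of 3 libraries, grouped by their titles. Per the labels and methods, the authors trimmed reads with cutadapt, mapped them with BWA (GRCm38), filtered out duplicates, improper pairs and reads of the mitochondrion or blacklist (Picard, SAMtools, BEDtools), called broad peaks with MACS2 on merged replicates, counted reads over the union of peaks with Rsubread and compared groups with DESeq2. The deposited tables list only regions past an FDR of 0.05, with raw read counts per library, the same counts divided by a size factor (a normalised signal) and their mean over all 12 libraries. The deposited peak lists give fold enrichment, a ratio over background, and −log10 q-values. The authors' log2 fold changes, standard errors, statistics and p-values in the tables were not used. Total sequencing depth was not used here, and reads in listed regions are not depth.

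The mean of the 6 reprogramming libraries (R) was obtained by subtracting the MEF counts from the 12-library mean, which matched the mean of single libraries at the 70 regions listed in both tables (largest relative difference 3.77e-13%). Peaks were merged with bedtools 2.31.1. The build was checked: 0 of 273256 merged regions ran past a chromosome end, and all 480 and 1608 listed regions were among them. Genes came from GENCODE M21. B1 elements were found with blastn 2.17.0 (E-value limit 1e-5, at least 60 aligned bases) against a consensus of 400 chromosome 19 copies reached from the 7SL gene and aligned with mafft 7.526, tested on simulated data. Strings were searched on both strands. Shares have 95% Wilson intervals from scipy 1.17.1. Starts are counted from 1.

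No test was made, because the rule used the contrasts, regions are not replicates, and single reprogramming libraries were given only for listed regions. Regions were named as the 6 with the highest (K + 1)/(C + 1) at K of at least 40, the 6 with the lowest R/C at C of at least 40, 3 on each side of the limit, the 6 listed in both tables with the highest reprogramming KO level, and up to 4 per gene list. Others are said to be chosen after their values were seen. The members and gene lists were chosen with earlier results of these data known. A gene and a sequence that met these rules are not reported here.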

Additional observations from a re-analysis of the deposited data

How the results depend on the processing

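No paired analysis was possible because no result comes from a test. Of 49 alternatives over 21 results, 29 stayed within the limits set for them and 20 moved. Counts and shares have no direction that could reverse. Without each MEF library in turn, the number of regions ran from 210 to 220 (213 with all), the median log2 ratio of K over C from 0.99 to 1.05 and the median R over C from 0.488 to 0.503. Leaving out a MEF KO library could change neither R nor C, and every KO library lay above every control library at each region. So the 213 regions and their R over C were fixed in those alternatives, which are among the 29. A limit of R below 0.5 of C left 110 regions. Adding 10 in place of 1 lowered the median log2 ratio to 0.89, and adding 10 to both R and C raised the median R over C to 0.609. With at least 100 aligned bases 36.6% held a B1 element, and 23.9% did in the central 400 bases. The AP-1 string was in 68.5% over the whole region. Where a peak had to cover 50% of the region, the shares were 56.3% in MEF control, 8.45% in reprogramming control and 16.4% in reprogramming KO. At a −log10 q of at least 5 they were 62.9% and 93.0% in control and KO MEFs, and 10.8% and 17.8% in control and KO reprogramming. With promoters widened to 2500 bases, 16.9% were at a promoter and 49.3% in introns. Of the 10 regions also listed in reprogramming, 3 had R below 0.5 of C. Within the host gene or 50 kb of the start site, 0 regions were assigned to pluripotency genes, since the Sox2 region lies further away. The causes of the other shifts were not tested. Peaks have no replicates, R has no error because single reprogramming libraries were given only for listed regions, and low counts limit the precision of the R over C of weak regions.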
